A study of Mus musculus with 12 samples.

Results

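Expression of p53 targets and apoptosis genes was examined in mouse germ cells made in culture or taken from embryos. The 8 genes, chosen by name with earlier results of these data known, were Mdm2, Cdkn1a, Ccng1, Gadd45a, Trp53inp1, Bbc3, Bax and Trp53. Counts of them set beside shares of all genes are therefore no independent support. Among the probe sets annotated with a gene alone, the brightest by its mean on the 12 arrays stood for that gene. That gave values for 6 of the 8 genes, out of 18194 genes in all, and all 6 were among the 13436 genes bright enough to be tested. Trp53 and Bax were not analysed here.

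The transcription factor p53 is kept low by the ubiquitin ligase Mdm2, whose own gene p53 switches on, so that the pathway limits itself. When DNA damage or other stress stabilises p53, it raises genes that stop the cell cycle, such as Cdkn1a, and genes that start mitochondrial apoptosis, such as Bbc3. Primordial germ cells (PGCs), from which oocytes and sperm later arise, are prone to apoptosis when they lack survival signals or lie outside the gonad.

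The study hybridised RNA of 6 groups of 2 samples, called biological replicates in the labels, to Affymetrix mouse arrays. Groups named d3ag6, d6 female, d6 male and d3 were PGC-like cells (PGCLCs), which are induced from embryonic stem cells, of C57BL/6 background with the reporters Blimp1-mVenus and stella-ECFP. The d3 group was female and taken at day 3 of induction, and the d6 groups at day 6. The d3ag6 group was female d3 cells kept for 6 further days in aggregates with somatic cells from the gonads of female embryos at embryonic day 12.5 (E12.5). The E12.5 group was PGCs of female embryos at that age, and the E9.5 group was PGCs at embryonic day 9.5 of unknown sex. PGCs carried stella-EGFP and came from C57BL/6 reporter males mated with wild-type BDF1 females. All cells were sorted on their reporter fluorescence, so each group is the part of its culture or embryo that passed the sort, and the labels do not say how many stem cell lines, cultures or litters stood behind a group. Where samples were not from separate cultures or litters, the p-values measure only a technical spread.

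Amplified cDNA equal to 5 ng of RNA (500 cells) gave each array 1 log2 signal per probe set. The number of arrays, 2 a group, limits the precision. The labels hold an array code: d3ag6, d6 female, d3 and E12.5 arrays share EA1013, and the d6 male and E9.5 groups each have 1 array of EA0831 and 1 of EA0842. Code and group therefore cannot be told apart in comparisons across these sets. Germ cell markers were above the array median on both arrays for 8 of 8 genes in each group except E9.5 PGCs, with 7 of 8, where Dazl was 5.92 and 3.81. The E9.5 arrays stood apart in red blood cell and mesenchyme genes. Marker sums here and below are the log2 of added unlogged signals, so the brightest markers weigh most. For 9 macrophage and blood markers the E9.5 sum was 13.7 and 12.7, against 8.18 to 10.9 on the other arrays. It was led by the embryonic globins Hbb-y at 12.5 and 11.4 and Hba-x at 12.7 and 11.7. For 6 mesenchyme markers the E9.5 sum was 11.1 and 9.95, against 7.44 to 9.86 on the other arrays. The d3ag6 arrays had 10.6 and 10.9 for macrophage and blood, against 8.18 to 9.44 on the arrays outside d3ag6 and E9.5, with Ctss and Lyz2, genes of macrophages, called higher than in d3, d6 female and E12.5 cells. Their gonadal somatic sum was 9.30 and 9.39, against 8.41 to 8.95 on the arrays outside d3ag6 and E9.5. Their mesenchyme sum was 8.88 and 9.86, against 7.44 to 9.04 on the arrays outside d3ag6 and E9.5, and the collagen gene Col3a1 read 8.22 and 9.30 in d3ag6 cells, against 4.69 and 4.78 in d3 cells and 5.10 and 4.81 in E12.5 PGCs. The d6 male arrays stood apart in endothelium genes, with a summed signal of 5 markers of 10.5 and 10.4, against 7.81 to 9.84 on the other arrays. No marker was at 0. The part of these cells in the results below was not tested.

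The sequences just before 4 of the genes are shown because each holds a match to the p53 half-site. A half-site is a short motif and only a part of the longer DNA sites through which p53 acts. Each run is 100 bases from the RefSeq promoter table (GRCm38.p6), read 5′ to 3′ on the gene's own strand, with each match to the p53 half-site in capitals.
Mdm2, chr10:117710890-117710989, minus strand: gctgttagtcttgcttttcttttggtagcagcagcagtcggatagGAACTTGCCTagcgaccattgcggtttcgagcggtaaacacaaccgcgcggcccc
Cdkn1a, chr17:29090872-29090971, plus strand: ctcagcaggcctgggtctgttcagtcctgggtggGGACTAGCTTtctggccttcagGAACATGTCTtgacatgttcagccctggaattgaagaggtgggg
Ccng1, chr11:40755417-40755516, minus strand: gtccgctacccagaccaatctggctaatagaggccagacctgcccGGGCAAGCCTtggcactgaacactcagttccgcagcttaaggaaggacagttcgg
Gadd45a, chr6:67037408-67037507, minus strand: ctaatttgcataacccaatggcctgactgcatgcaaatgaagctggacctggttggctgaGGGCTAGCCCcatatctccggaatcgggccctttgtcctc

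The search took the p53 half-site, a motif of 10 letters that is its own reverse complement and so reads alike on both strands, with no mismatch. The window ran from 250 bases before to 50 bases after a gene's start. A half-site stood 186 to 177 bases before the start of Mdm2, 185 to 176 before that of Ccng1 and 40 to 31 before that of Gadd45a. Cdkn1a has 2 annotated starts, 2790 bases apart. Its half-sites lay 73 to 64 and 51 to 42 bases before the earlier start, and the window of the later start held none. The 3 windows of Bbc3 held none, and Trp53inp1 was not in the table. So 4 of 5 genes with a window held a half-site, against 2582 of 27025 genes (9.55%) in the whole table and 7 of 28 (25%) among other p53 targets. By window, the share was 2745 of 32851 (8.36%). A match describes the letters only.

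The data show 2 patterns over the 6 groups. In 5 of the 6 genes (Mdm2, Cdkn1a, Ccng1, Trp53inp1 and Bbc3) both E9.5 arrays lay below all 10 other arrays, which held for 925 of all genes tested (6.88%). Gadd45a went another way: its 4 lowest arrays were those of d3ag6 cells and E12.5 PGCs, the groups from or with the E12.5 gonad, below all 8 others, as in 479 genes (3.57%). All 6 genes differed among the groups by limma's F test over all genes, where 37% of genes were called, with adjusted p from 9.87e-05 (Gadd45a) to 0.025 (Mdm2). The ratio of the highest to the lowest group mean was 7.13 for Gadd45a, 5.99 for Cdkn1a, 4.73 for Ccng1, 3.81 for Trp53inp1, 2.79 for Bbc3 and 2.47 for Mdm2. These are array signals from sorted bulk samples, in which fewer cells of a type and less RNA per cell cannot be told apart.

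**Figure D1:**
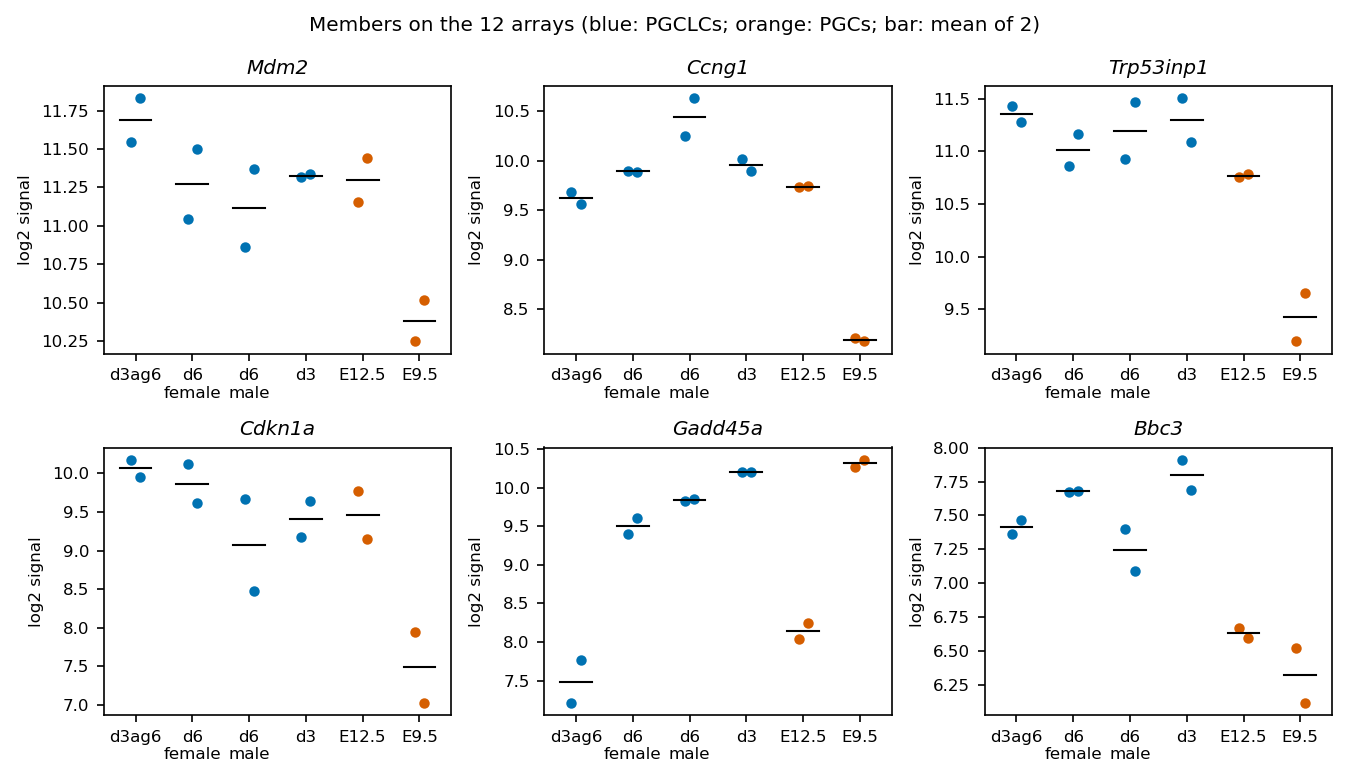
Normalized log2 signal (vertical axis) of the 6 genes on each of the 12 arrays, by group (horizontal axis); points are arrays and bars group means. The E9.5 points are the lowest in 5 panels, and in the Gadd45a panel the d3ag6 and E12.5 points are the lowest.

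Mdm2, the ligase that marks p53 for destruction (chromosome 10, 117688875 to 117710758, GRCm38.p6), had its highest group mean in the aggregates. Its log2 signal was 11.54 and 11.83 in d3ag6 cells, 11.05 and 11.50 in d6 female, 10.86 and 11.37 in d6 male and 11.32 and 11.33 in d3 cells. It was 11.16 and 11.44 in E12.5 PGCs and 10.25 and 10.52 in E9.5 PGCs. Mdm2 in d3ag6 cells was not called against d3, d6 female or E12.5 cells (adjusted p 0.406, 0.342 and 0.386 by limma). On the values as deposited, a d6 female array (11.58) lay above a d3ag6 array (11.54). On the normalized values the d3, E12.5, d6 female and d6 male arrays overlapped along the order of means, while d3ag6 lay above the next group and E9.5 below. A second probe set of Mdm2 did not show this order. It read 6.68 and 8.83 in d6 male cells and 5.26 and 9.08 in E9.5 PGCs, so that the 2 arrays of each group were far apart, the EA0842 array being the higher in both.

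Ccng1 encodes cyclin G1, which p53 induces and which acts with a phosphatase on Mdm2 (chromosome 11, 40748552 to 40755309). Its signal was 9.68 and 9.56 in d3ag6, 9.90 and 9.89 in d6 female, 10.25 and 10.63 in d6 male and 10.02 and 9.90 in d3 cells. In PGCs it was 9.74 and 9.74 at E12.5 and 8.21 and 8.18 at E9.5. No group overlapped the next in the order of means, although d3 and d6 female differed by 0.07 in the mean. A second probe set of Ccng1 gave 9.91 and 9.84 in d3ag6 cells, 9.10 and 8.83 in E12.5 PGCs and 8.12 and 7.68 in E9.5 PGCs, so there the E12.5 arrays lay below the d3ag6 arrays, and E9.5 was again lowest. On the third, the E9.5 arrays (7.05 and 7.23) lay among those of d3ag6 (7.60 and 6.88) and E12.5 (7.29 and 6.88).

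**Figure D2:**
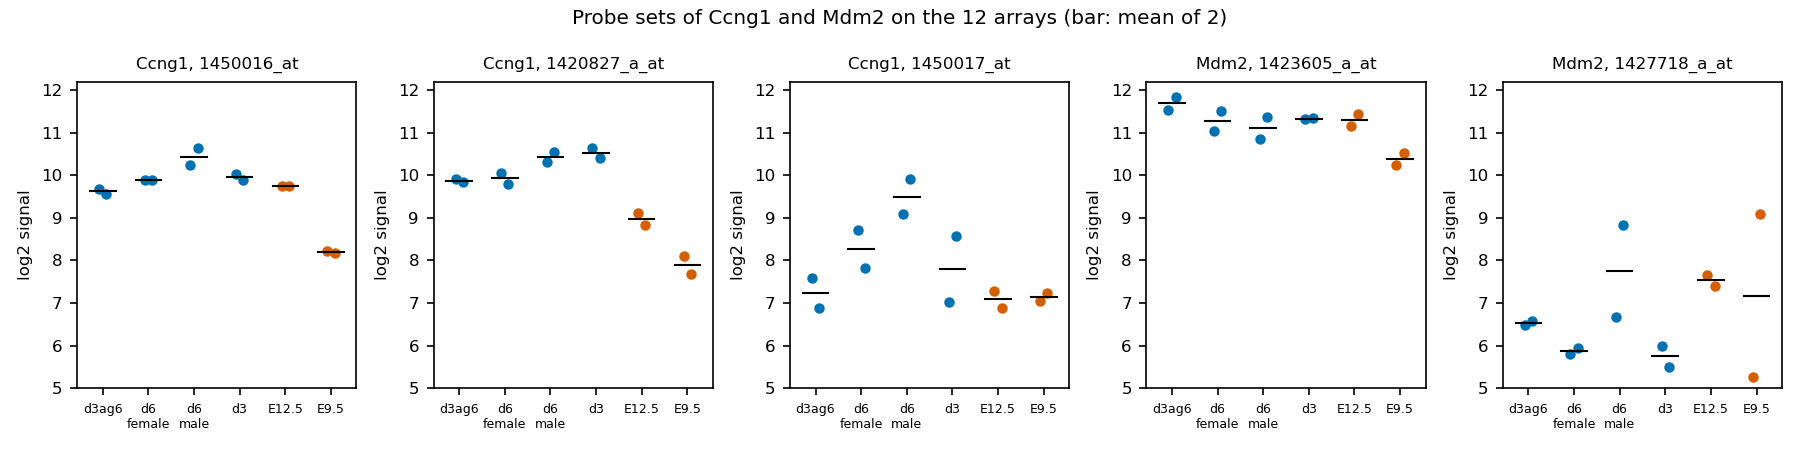
Normalized log2 signal (vertical axis) of probe sets of Ccng1 and Mdm2 on the 12 arrays by group (horizontal axis), bars giving means of 2. The E9.5 points are lowest for the first Ccng1 and Mdm2 probe sets, and those of the second Mdm2 probe set lie at 5.26 and 9.08.

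Cdkn1a encodes p21, the inhibitor of cyclin-dependent kinases that carries much of the arrest by p53 (chromosome 17, 29090979 to 29100722). Its signal was 10.18 and 9.95 in d3ag6, 10.12 and 9.61 in d6 female, 9.67 and 8.47 in d6 male and 9.18 and 9.65 in d3 cells. It was 9.78 and 9.15 in E12.5 PGCs and 7.95 and 7.02 in E9.5 PGCs. The largest SD between replicates, 0.85 in d6 male cells, was above that of any of the other 5 genes on the probe sets used (0.27 to 0.39), and each group above E9.5 overlapped its neighbour in the order. A second probe set of Cdkn1a also had E9.5 lowest, at 4.29 and 5.17 against 6.55 to 7.72 on the other arrays.

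Gadd45a, a stress-induced protein that binds PCNA and p21 and slows the cycle at G2 (chromosome 6, 67035096 to 67037407), had the widest range of group means. Its signal was 7.21 and 7.76 in d3ag6, 9.40 and 9.61 in d6 female, 9.83 and 9.85 in d6 male and 10.20 and 10.20 in d3 cells. It was 8.04 and 8.24 in E12.5 PGCs and 10.27 and 10.36 in E9.5 PGCs. No group overlapped the next in the order E9.5, d3, d6 male, d6 female, E12.5, d3ag6.

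Trp53inp1 encodes a nuclear cofactor of p53 that also works in autophagy (chromosome 4, 11156441 to 11174379). Its signal was 11.43 and 11.28 in d3ag6, 10.86 and 11.17 in d6 female, 10.92 and 11.46 in d6 male and 11.50 and 11.09 in d3 cells. It was 10.75 and 10.78 in E12.5 PGCs and 9.20 and 9.65 in E9.5 PGCs. The 4 PGCLC groups overlapped along the order of means, and E12.5 and then E9.5 lay below them. A second probe set of Trp53inp1 did not have E9.5 lowest, at 2.94 and 3.39 against 2.41 and 2.96 in d3 cells. All its arrays lay under 4.81, the level above which a gene was tested. Bbc3 encodes PUMA, a BH3-only protein that frees the pore-forming BCL2 proteins (chromosome 7, 16308398 to 16318334). Its signal was 7.36 and 7.46 in d3ag6, 7.67 and 7.68 in d6 female, 7.40 and 7.09 in d6 male and 7.91 and 7.69 in d3 cells. It was 6.67 and 6.60 in E12.5 PGCs and 6.52 and 6.12 in E9.5 PGCs, so all PGCLC arrays lay above all PGC arrays. The share of all genes with this pattern was not counted. PGCLCs and PGCs also differ in reporter and cross, which cannot be told apart from it.

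The next comparisons set 2 groups against each other. Changes are differences of log2 group means from limma over all 12 arrays with their standard error (SE), 2 arrays a group, and a gene was called at a Benjamini-Hochberg adjusted p under 0.05 over all genes tested. Comparisons that share a group (E9.5 stands in 3, d3 in 2) are not independent of each other.

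**Figure D3:**
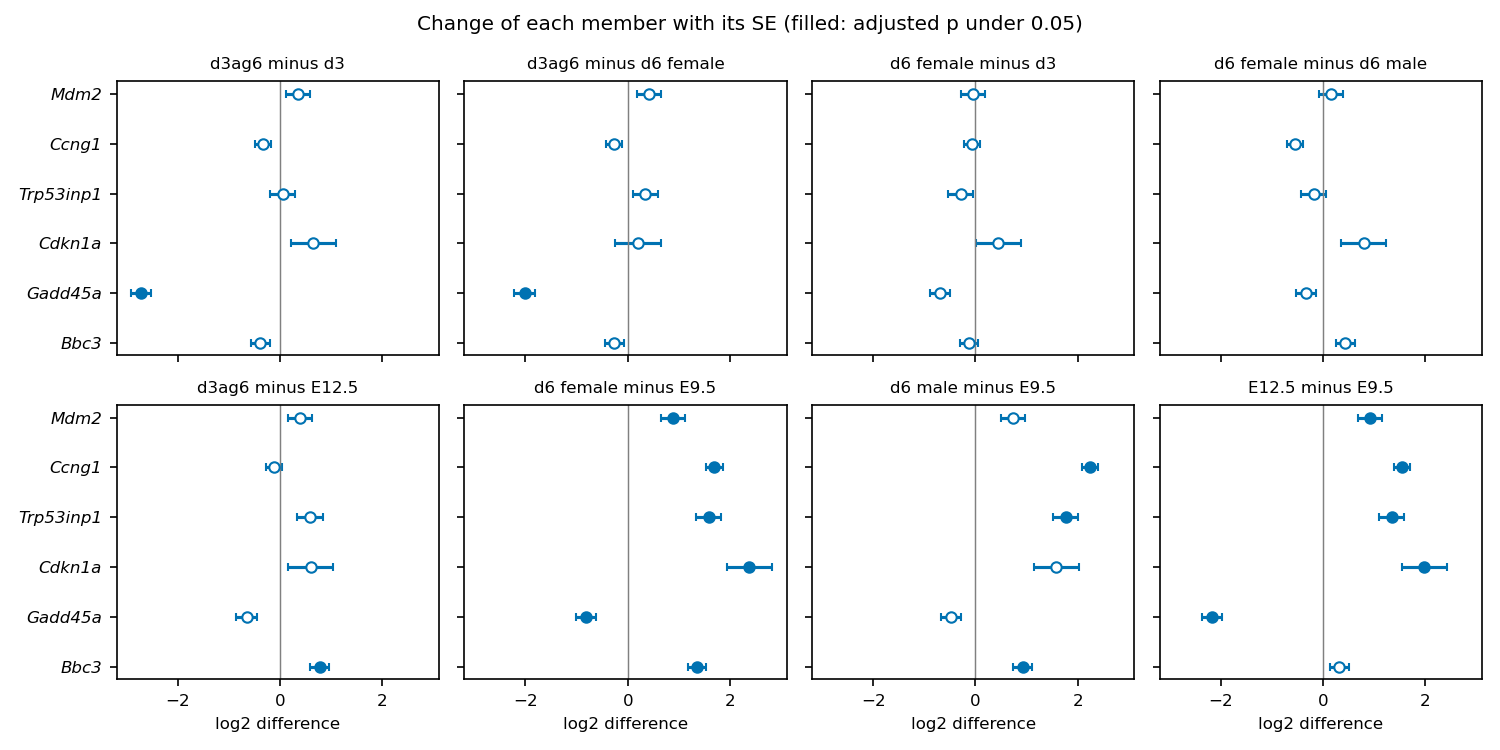
Log2 difference (horizontal axis) of each gene in each comparison, first-named minus second-named group, with bars of 1 SE; filled points have an adjusted p under 0.05. Points of 5 genes lie right of 0 in the 3 comparisons with E9.5, and Gadd45a lies at -2.71, -2.02 and -2.18 in d3ag6 minus d3, d3ag6 minus d6 female and E12.5 minus E9.5.

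Day 6 PGCLCs and E9.5 PGCs were compared to set cultured cells beside migrating PGCs of the embryo. In d6 female cells all 6 genes differed from E9.5 PGCs: 5 were higher, where 8.33% of all genes were called higher, and Gadd45a was lower, where 5.6% were. Cdkn1a was higher by 2.38 (SE 0.44, adjusted p = 0.00898 by limma), a ratio of 5.21. Ccng1 was higher by 1.70 (SE 0.16, adjusted p = 0.0005 by limma). Trp53inp1 was higher by 1.59 and Bbc3 by 1.36, with adjusted p of 0.00395 and 0.0022 by limma. The smallest changes were those of Mdm2 (0.89, SE 0.24) and Gadd45a (-0.81, SE 0.20), with adjusted p of 0.0372 and 0.0265 by limma. Their calls did not hold without any 1 of the 4 arrays (adjusted p 0.0582 to 0.209 for Mdm2 and 0.0692 to 0.152 for Gadd45a), and that of Cdkn1a was lost without d6 female replicate 1 (0.068). The median change of the 6 genes was 1.47, against 0.07 over all genes. On the second probe set of Mdm2 (-1.30, adjusted p = 0.470 by limma) and with the mean of all its probe sets (-0.08, adjusted p = 0.927 by limma) the direction turned and the call was lost, and on the third of Ccng1 the call was lost (1.14, adjusted p = 0.189 by limma). Array code and group cannot be told apart here.

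The d6 male cells share their array codes with the E9.5 PGCs, so that the same question could be asked within a code. Ccng1 was higher by 2.24 (SE 0.16, adjusted p = 0.000183 by limma), a ratio of 4.73. Trp53inp1 was higher by 1.77 (SE 0.25) and Bbc3 by 0.93 (SE 0.19), with adjusted p of 0.00265 and 0.0142 by limma. These 3 genes were called higher, as were 6.04% of all genes, and none lower, as were 4.55%. Cdkn1a (1.59, adjusted p = 0.0533 by limma), Mdm2 (0.73, adjusted p = 0.0895 by limma) and Gadd45a (-0.48, adjusted p = 0.183 by limma) were not called. The call of Bbc3 was kept in 2 of 4 fits that left out 1 array (adjusted p 0.015 to 0.0707). With only the 4 arrays of these groups fitted, Ccng1 was called (adjusted p = 0.0305 by limma), and the calls of Trp53inp1 (0.0678) and Bbc3 (0.184) were lost. Endothelium markers moved in the same direction: 3 of 5 were called higher in d6 male cells and none lower, among them Tek (2.39), Tie1 (2.56) and Kdr (1.34), and their part was not tested.

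Within codes the differences were alike in direction. Ccng1 was higher in d6 male cells by 2.03 on the EA0831 arrays and by 2.45 on the EA0842 arrays. For Cdkn1a the differences were 1.73 (EA0831) and 1.45 (EA0842), for Trp53inp1 1.73 and 1.81, for Bbc3 0.88 and 0.97, and for Mdm2 0.61 and 0.85. Gadd45a was lower by the same measure, with -0.45 and -0.51. The share of all genes with the same direction on both codes was not counted, so this likeness is not particular to these genes. With the replicate number as a block, 5 genes were called, with adjusted p of 0.0256 for Cdkn1a and 0.0245 for Mdm2. With the array code as a term, they were 0.00777 and 0.0417, again with 5 genes called. Calls over all genes rose too, from 1424 to 1496 with the block and to 2004 with the code term.

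**Figure D4:**
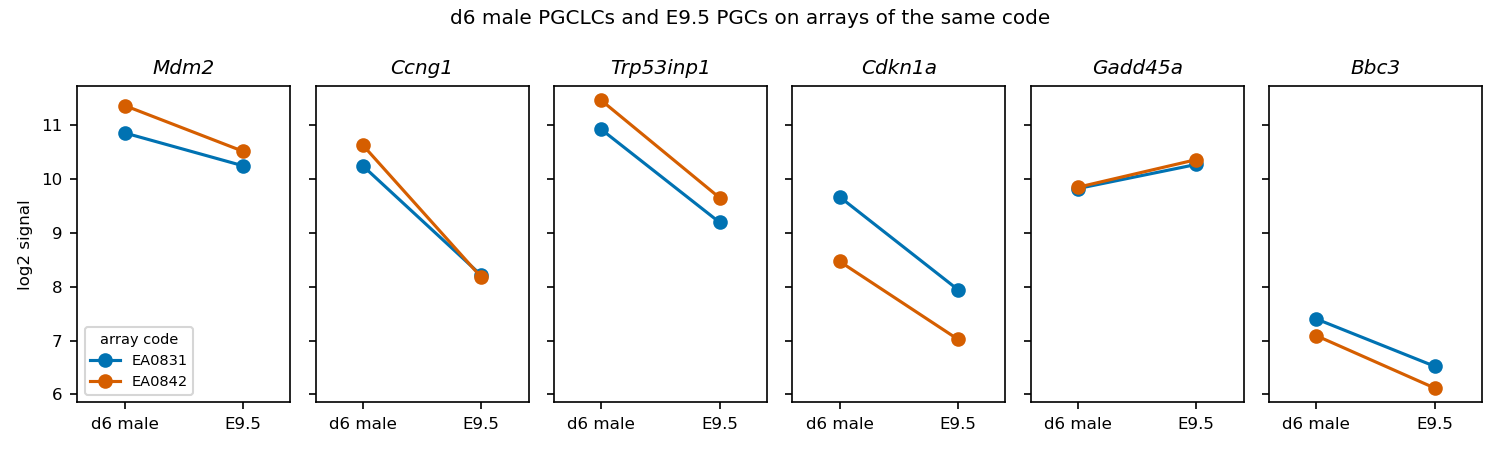
Normalized log2 signal (vertical axis) of each gene in d6 male cells and E9.5 PGCs (horizontal axis); a line joins the 2 arrays that share a code. Both lines fall toward E9.5 in each panel except Gadd45a, where both rise.

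The step from E9.5 to E12.5 in the embryo was the next comparison. E12.5 PGCs had 4 genes called higher than E9.5 PGCs, where 12.9% of genes were, and Gadd45a called lower, where 10.7% were. Cdkn1a was higher by 1.98 (SE 0.44, adjusted p = 0.0123 by limma). Ccng1 was higher by 1.54 (SE 0.16) and Trp53inp1 by 1.34 (SE 0.25), with adjusted p of 0.00039 and 0.00525 by limma. The third probe set of Ccng1 read -0.05 (adjusted p = 0.954 by limma), with the direction turned. Mdm2 was higher by 0.92 (SE 0.24, adjusted p = 0.0224 by limma) but was not called on its second probe set (0.36, adjusted p = 0.833 by limma), and Bbc3 differed by 0.31 (adjusted p = 0.253 by limma), which was not called. Gadd45a was lower in E12.5 PGCs by a ratio of 4.52 (-2.18, SE 0.20, adjusted p = 0.000199 by limma). Mdm2 kept its call in 1 of 4 fits without 1 array (adjusted p 0.0405 to 0.141), and Cdkn1a in 2 of 4 (0.0142 to 0.094). Without E12.5 replicate 1 both were lost. Code and group cannot be told apart here either.

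The 3 comparisons rest on the same E9.5 arrays, which carry globin and collagen signal. Their summed signal of 8 germ cell markers was 14.7 and 14.9, against 14.4 to 15.2 on the 10 others. Of these 8 markers, Dazl lay below all 10 others on both E9.5 arrays (5.92 and 3.81, against a lowest of 7.13), and the other 7 did not. The sorted reporter's own gene Dppa3 read 13.02 and 13.18, against 12.55 to 13.16 on the 10 others. The sort selected for this reporter, and Dppa3 stood close to the array maxima (13.76 to 13.93). Its level, and a sum led by such bright markers, therefore cannot show whether other cells diluted the germ cell signal.

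Aggregation with gonadal somatic cells was compared with the starting d3 cells. Of the 6 genes only Gadd45a was called: it fell by 2.71 in d3ag6 cells (SE 0.20, adjusted p = 0.000131 by limma), a ratio of 6.57, where 4.84% of all genes were called lower and 5.81% higher. The other 5 lay between -0.39 (Bbc3, adjusted p = 0.242 by limma) and 0.65 (Cdkn1a, adjusted p = 0.424 by limma). Against d6 female cells, which had culture alone but fewer days in all, Gadd45a was again the only gene called (-2.02, SE 0.20, adjusted p = 0.00122 by limma). The ratio was 4.05, where 2.36% of genes were called lower and 4.03% higher. The 2 comparisons rest on the same d3ag6 arrays. Both calls held without each array (adjusted p 0.000642 to 0.00172 against d3 and 0.00524 to 0.0125 against d6 female). Of 7 macrophage and blood markers tested, 4 were called higher in d3ag6 than in d3 cells and 3 higher than in d6 female cells. Of 7 gonadal somatic markers tested, only Amhr2 was called higher than in d3 cells, and Amhr2 and Fst than in d6 female cells. Of 5 mesenchyme markers tested, Col3a1 was called higher than in d3 cells. Their part in the change of Gadd45a was not tested.

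Culture from day 3 to day 6 moved none of the 6 genes past the threshold by limma, where 1.72% of genes were called higher and 2.34% lower. Gadd45a had the largest difference, lower in d6 female than in d3 cells by the group means (-0.70, SE 0.20, adjusted p = 0.0979 by limma, 95% interval -1.14 to -0.25). For the others the 95% intervals of the d6 female minus d3 difference spanned 0, for example -0.59 to 0.48 for Mdm2 and -0.55 to 1.45 for Cdkn1a. Between d6 female and d6 male cells none was called by limma either, where 0.968% of genes were called higher and 0.499% lower. The 95% intervals of Ccng1 (-0.55, adjusted p = 0.137 by limma) and Bbc3 (0.43, adjusted p = 0.2655 by limma) did not span 0. They ran from -0.91 to -0.18 for Ccng1 and from 0.01 to 0.85 for Bbc3. Cdkn1a stood at 0.79 (adjusted p = 0.37 by limma), with overlapping arrays.

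The d3ag6 cells were set beside E12.5 PGCs, the stage of the gonads they were aggregated with. Bbc3 alone was called, higher in d3ag6 cells by 0.78 (SE 0.19, adjusted p = 0.0335 by limma), a ratio of 1.72, where 5.95% of genes were called higher and 3.07% lower. The call was lost without any 1 of the 4 arrays (adjusted p 0.109 to 0.182). Gadd45a was 0.66 lower in d3ag6 cells by the means and was not called (adjusted p = 0.0747 by limma). Ccng1 differed by -0.12 (adjusted p = 0.742 by limma), but on its second probe set it was higher in d3ag6 cells by 0.91 (adjusted p = 0.027 by limma).

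An interaction contrast asked whether d3ag6 minus d6 female differed from E12.5 minus E9.5. The aggregates were started from d3 cells, so d3ag6 minus d6 female is not a change over time. Ccng1 was called (-1.81, SE 0.23, adjusted p = 0.00382 by limma), where 2.47% of genes were called lower and 3.28% higher. Its d3ag6 minus d6 female difference was -0.27 and its E12.5 minus E9.5 difference 1.54. The same value is d3ag6 minus E12.5 (-0.1175) less d6 female minus E9.5 (1.697), so it rests on the E9.5 arrays too. With the mean of all probe sets of Ccng1 the call was lost (-1.31, adjusted p = 0.0612 by limma). For Gadd45a the differences were -2.02 (d3ag6 minus d6 female) and -2.18 (E12.5 minus E9.5), and the contrast was 0.16 (adjusted p = 0.803 by limma, 95% interval -0.47 to 0.78).

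Other genes of the pathway were taken from 5 lists, also written with earlier results of these data known. Their counts beside the shares of all genes are therefore descriptive and no independent support. Of 33 other p53 targets tested, 10 had both E9.5 arrays below all others, against 6.88% of all genes. In d6 male against E9.5 cells 13 of the 33 were called higher and none lower (6.04% and 4.55% of all genes), with a median change of 0.69, against 0.00 over all genes. Leaving out single arrays gave 8 to 11 called higher. In d6 female against E9.5 cells 9 were called higher and 1 lower (8.33% and 5.6% of all genes), with a median of 0.61, against 0.07 over all genes, and with 6 to 7 called higher when single arrays were left out. E12.5 against E9.5 PGCs gave 8 higher and 5 lower (12.9% and 10.7% of all genes), with a median of 0.37, against 0.08, and with 3 to 7 higher and 1 to 4 lower when single arrays were left out.

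Phlda3, a repressor of Akt signalling, averaged 10.05 ± 0.08 in d6 male and 9.42 ± 0.01 in d6 female cells, against 7.33 ± 0.53 in E9.5 PGCs (SD, n = 2 each). It was higher by 2.72 (SE 0.23, adjusted p = 0.000338 by limma) in d6 male and by 2.09 (adjusted p = 0.000899 by limma) in d6 female cells. Pmaip1, which encodes the BH3-only protein NOXA, read 9.70 and 9.08 in d6 male, 7.68 and 8.11 in d6 female, 5.93 and 5.96 in E12.5 and 5.66 and 3.74 in E9.5 cells. It was higher than in E9.5 PGCs by 4.69 in d6 male and by 3.20 in d6 female cells, with adjusted p of 0.000831 and 0.00447 by limma. Eda2r, a receptor of the TNF family, was higher than in E9.5 PGCs by 2.99 in d6 male and by 3.00 in d6 female cells, with adjusted p of 0.00179 and 0.00161 by limma. All these calls held without each array, although 1 of the E9.5 arrays of Pmaip1 lay under 4.81, the level above which a gene was tested, so the size of its change is uncertain. Not all targets stood low at E9.5: Rprm, an inhibitor of the G2 step, read 2.96 and 3.17 in E12.5 PGCs, against 6.97 and 6.35 in E9.5 PGCs. It read 2.02 and 2.93 in d3ag6 cells, against 5.64 and 6.65 in d3 cells. The E12.5 and d3ag6 arrays lay under that level, so no size of change is given.

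Among the same targets, d3ag6 minus d3 gave 1 higher and 6 lower (5.81% and 4.84% of all genes), and 0 to 1 higher and 1 to 6 lower when single arrays were left out. Psrc1, a spindle protein, was lower by this contrast (-2.49, SE 0.38, adjusted p = 0.00456 by limma), a call that held without each array. Against E12.5 PGCs, d3ag6 cells had 5 higher and 1 lower (5.95% and 3.07% of all genes), and 1 to 3 higher and 0 to 1 lower when single arrays were left out. Btg2, an antiproliferative gene, was higher there by 1.80 (SE 0.25, adjusted p = 0.00336 by limma), and Pmaip1 by 3.01 (SE 0.51, adjusted p = 0.00831 by limma), a call lost without any 1 array (adjusted p 0.0507 to 0.0618). In d6 female minus d3 there were 0 higher and 2 lower (1.72% and 2.34% of all genes). In d3ag6 minus d6 female there were 1 higher and 2 lower (4.03% and 2.36% of all genes). The counts of called genes could fall when single arrays were left out. For d6 female minus d6 male none of these targets was called by limma, which does not show that none differed. Of all genes, 0.968% were called higher there and 0.499% lower.

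**Figure D5:**
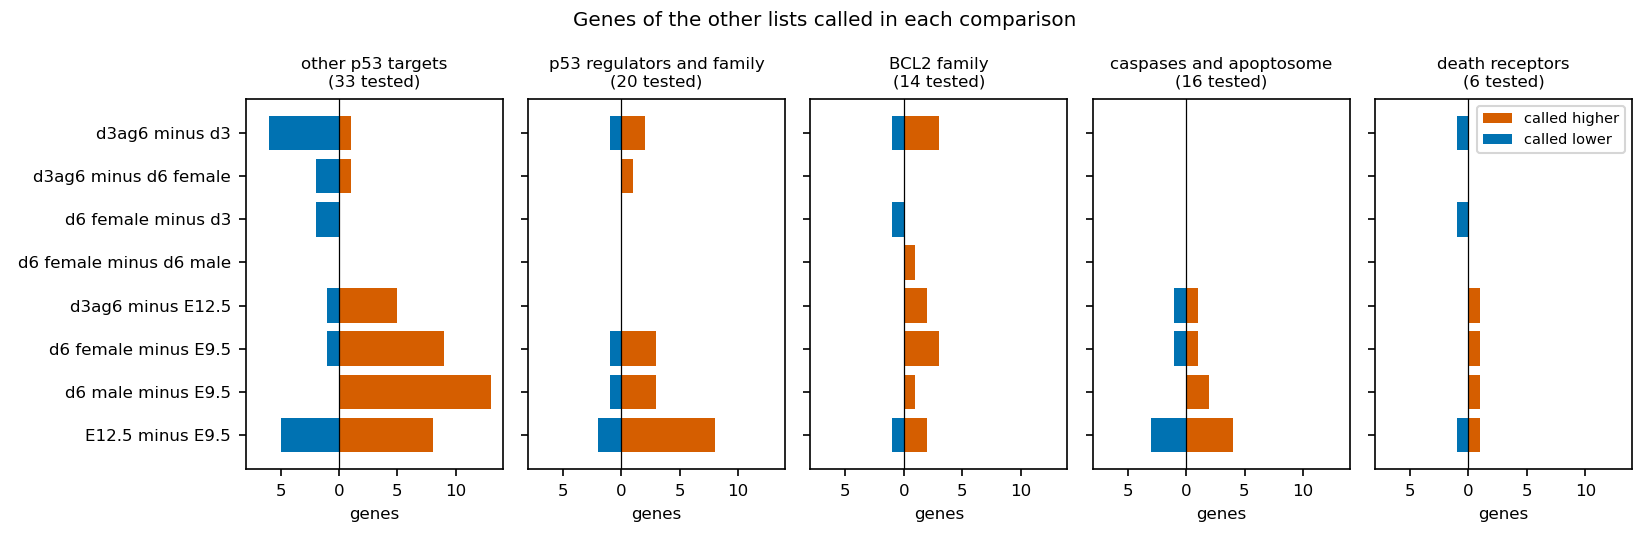
Number of genes (horizontal axis) of each list called higher (right of 0) or lower (left of 0) in each comparison (vertical axis). The longest bar is the 13 other p53 targets called higher in d6 male minus E9.5.

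Of 20 regulators and relatives of p53 tested, 8 were called higher and 2 lower in E12.5 against E9.5 PGCs, where 12.9% and 10.7% of all genes were, with 3 to 7 higher and 0 to 1 lower when single arrays were left out. Ppp1r13b (ASPP1, a cofactor of p53) was higher by 2.18 (SE 0.17, adjusted p = 9.04e-05 by limma), and the damage kinase Atr by 1.18 (SE 0.16, adjusted p = 0.0015 by limma). Ppp1r13b was also higher in d3ag6 than in d3 cells by 1.27 (SE 0.17, adjusted p = 0.00194 by limma). Mdm4, the partner of Mdm2, was higher than in E9.5 PGCs by 1.01 in d6 female and 0.91 in d6 male cells, with adjusted p of 0.00412 and 0.00732 by limma. In both of these comparisons 3 regulators were called higher and 1 lower. Of all genes, 8.33% were called higher and 5.6% lower in d6 female minus E9.5, and 6.04% and 4.55% in d6 male minus E9.5. When any single array was left out the lower call was lost in both, and the number called higher could move.

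Of 14 BCL2 family genes, Bik, a BH3-only gene, was called in the most comparisons. Its signal was 9.30 and 9.15 in d3ag6, 8.29 and 8.54 in d6 female, 6.52 and 6.50 in d6 male, 8.23 and 7.75 in d3, 7.46 and 7.46 in E12.5 and 6.37 and 5.51 in E9.5 cells. It was higher by 2.47 in d6 female cells than in E9.5 PGCs, by 1.52 in E12.5 than in E9.5 PGCs and by 1.77 in d3ag6 cells than in E12.5 PGCs (adjusted p 0.000899, 0.00488 and 0.00538 by limma). It was the only gene of the 5 lists called between d6 female and d6 male cells (1.91, adjusted p = 0.0204 by limma), a call that 1 of 4 fits without 1 array kept. By comparison, BCL2 genes called were 3 higher in d6 female minus E9.5 (8.33% of all genes), 1 higher in d6 male minus E9.5 (6.04%), 2 higher and 1 lower in E12.5 minus E9.5 (12.9% and 10.7%), and 2 higher in d3ag6 minus E12.5 (5.95%). They were 3 higher and 1 lower in d3ag6 minus d3 (5.81% and 4.84%), with 0 to 2 higher and 0 to 1 lower when single arrays were left out. In d6 female minus d3 (2.34% lower) only Bcl2l11, which encodes BIM, was called (-0.96, adjusted p = 0.0235 by limma), and the call was lost without any 1 array.

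Of 16 caspase and apoptosome genes, 4 were called higher and 3 lower in E12.5 against E9.5 PGCs, where 12.9% and 10.7% of all genes were, with 0 to 3 higher and 2 to 3 lower when single arrays were left out. Casp8, the initiator caspase of death receptors, read 5.24 and 5.51 in E12.5 and 7.29 and 7.65 in E9.5 PGCs (-2.10, SE 0.25, adjusted p = 0.000673 by limma). Htra2, a mitochondrial protease, was lower in E12.5 PGCs by the same contrast (-2.55, SE 0.35, adjusted p = 0.00142 by limma). Of 6 death receptor genes, Ripk3, the kinase of necroptosis, averaged 5.75 ± 0.44 in d3ag6, 5.94 ± 0.40 in d6 female, 7.95 ± 0.13 in d3, 4.17 ± 0.24 in E12.5 and 6.62 ± 0.09 in E9.5 cells (SD, n = 2 each). In E12.5 PGCs it lay under 4.81 on both arrays, so no size is given there. It was lower in d3ag6 than in d3 cells (-2.19, adjusted p = 0.00118 by limma) and in d6 female than in d3 cells (-2.00, adjusted p = 0.00468 by limma). These calls of Casp8, Htra2 and Ripk3 held without each array.

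Likeness across the 12 arrays, as Pearson's r with no test, was measured between genes that share arrays and normalization. Among the 6 genes it was highest between Trp53inp1 and Ccng1 (0.888) and between Trp53inp1 and Mdm2 (0.879), and lowest between Gadd45a and Mdm2 (-0.600). Bbc3 and Gadd45a had an r of 0.00879. Among all genes tested, the most alike were Slc2a8 (0.945) and Dclk2 (0.937) for Mdm2, Rpp25 (0.942) and Cpt1a (0.941) for Ccng1, and Hilpda (0.973) and Psap (0.972) for Cdkn1a. For Gadd45a they were Nol7 (0.979) and Rtl8c (0.970), for Trp53inp1 Slc19a2 (0.973) and Pip4k2c (0.961), and for Bbc3 Glmp (0.973) and Sulf2 (0.971).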

How the data were processed

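The deposited table held 45101 probe sets, with values read as log2 signal from their range (array maxima 13.76 to 13.93); the log base, probe summarisation and normalization by the authors are not given in the sources used here. Per the labels, cDNA was amplified from 5 ng of RNA with 12 initial PCR cycles, which can widen the spread of dim genes. Between 2.07% and 2.3% of an array's values stood at exactly 0.

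Values were quantile normalized between arrays (array medians had been 4.73 to 4.87) with limma 3.58.1 in R 4.3.3. The platform annotation named 34958 probe sets with 1 gene, 932 with several and 9211 with none, and 34754 were matched to RefSeq by gene ID. A gene took its probe set with the highest mean and was tested if 2 or more arrays were above 4.81, the overall median. The fit was 1 mean per group over 12 arrays (6 residual degrees of freedom) with eBayes, two-sided, and was checked on simulated data. Tables used pandas 2.3.3, numpy 2.4.6 and Python 3.11.15, and plots used matplotlib 3.10.9.

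Groups, replicates and array codes came from the labels. No 2 arrays were near copies (highest correlation 0.973). Same-numbered d6 male and E9.5 arrays share a code, and their deviations from the group means correlated at 0.547, against -0.252 to 0.547 over all 15 pairs of groups, so the block is printed for that comparison. The members and lists were chosen with earlier results of these data known. All members are named, and of the lists up to 4 called genes per list and comparison in order of adjusted p, with the 2 most alike genes per member. Sequences came from RefSeq promoters. Alternatives were leaving dim genes in, a filter at 7.59 (the 75th percentile), the deposited scale, the mean of a gene's probe sets, other probe sets, the block, eBayes with trend and robust, fewer arrays, single arrays left out and, added after seeing the data, the array code as a term, a crossed pairing and list genes under each setting.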

Additional observations from a re-analysis of the deposited data

Results flagged for a closer look

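Ccng1 was called in the interaction contrast: d3ag6 minus d6 female less E12.5 minus E9.5 was -1.81 (SE 0.23, adjusted p = 0.00382 by limma). The call held without each single array, and not with the mean of the probe sets of Ccng1 (-1.31, adjusted p = 0.0612 by limma). The d3ag6 and d6 female arrays carry another array code than the E9.5 arrays, and the E9.5 arrays carry globin signal. Their part in the difference was not tested.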

How the results depend on the processing

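With 2 arrays a group and 6 residual degrees of freedom, calls near the threshold depend on single arrays, and a group left with 1 array was assumed to vary like the others. Among alternatives to changes called for the 6 members, 198 were counted as the same, 34 lost the call and 3 turned in direction. Differences within an array code had no p. Of those, 2 moved by more than 1 SE, and the ones within 1 SE are among the 198. The cause was not tested.

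With single arrays left out, members called numbered 0 in d6 female minus d3, 1 in d3ag6 minus d3 and in d3ag6 minus d6 female, 0 to 1 in d3ag6 minus E12.5, 3 to 4 in d6 female minus E9.5, 2 to 4 in d6 male minus E9.5, 3 to 4 in E12.5 minus E9.5, 0 in d6 female minus d6 male, 4 to 6 in the F test and 1 in the interaction. All genes called then numbered, in the same order and beside the count with all arrays, 112 to 461 (545), 588 to 955 (1430), 193 to 356 (859), 363 to 573 (1213), 743 to 1353 (1872), 849 to 1105 (1424), 1387 to 2541 (3170), 12 to 239 (197), 3112 to 5175 (4965) and 268 to 789 (773).

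With no filter, 0 members were called in d3ag6 minus E12.5, and all genes called fell to 313 in d6 female minus d3, 419 in d3ag6 minus d6 female, 775 in d3ag6 minus E12.5, 38 in d6 female minus d6 male and 459 in the interaction. With the compared groups fitted alone, 1 member was called in d6 male minus E9.5, and all genes called were 148 in d6 female minus d3, 765 in d3ag6 minus d3, 569 in d3ag6 minus d6 female, 560 in d6 female minus E9.5, 291 in d6 male minus E9.5 and 2 in d6 female minus d6 male. With the mean of all probe sets, 3 members were called in E12.5 minus E9.5, and all genes called were 338 in d6 female minus d3 and 796 in d3ag6 minus E12.5. With the array code as a term, which can adjust only between EA0831 and EA0842, 3 members were called in the interaction and 5 in d6 male minus E9.5. All genes called were then 2924 in d6 female minus E9.5, 2004 in d6 male minus E9.5, 988 in d6 female minus d6 male and 1388 in the interaction.

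With the replicate number as a block, 5 members and 1496 of all genes were called in d6 male minus E9.5. The count of members called was as without the block in the other comparisons. Numbers 1 and 2 of d3 deviated against those of d6 female (-0.252), and with d3 crossed 709 genes were called in d6 female minus d3 and 1836 in d3ag6 minus d3, with 0 and 1 members. On the deposited scale the median of all genes moved by at most 0.10 (d6 female minus d6 male, by -0.10), and the share of calls that were higher was 73.6% against 63.1% in d3ag6 minus d6 female, 44.5% against 59.8% in d6 female minus E9.5, 44.4% against 54.5% in E12.5 minus E9.5, 41.6% against 66% in d6 female minus d6 male and 73.3% against 57.1% in the interaction.

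Directions turned as follows. With the mean of all probe sets, Mdm2 read 0.11 and Trp53inp1 0.051 in d6 female minus d3, Mdm2 -0.12 and Ccng1 0.31 in d3ag6 minus E12.5, Mdm2 -0.081, Trp53bp1 0.027 and Casp9 -0.058 in d6 female minus E9.5, Rrm2b -0.15 and Usp7 -0.034 in E12.5 minus E9.5, Mdm2 -0.53 in d6 female minus d6 male and Trp53bp1 -0.11 in the interaction. On the second Mdm2 probe set the values were 0.13 in d6 female minus d3, -0.99 in d3ag6 minus E12.5, -1.30 in d6 female minus E9.5 and -1.88 in d6 female minus d6 male. The second Ccng1 probe set gave 0.91 in d3ag6 minus E12.5, and the third gave 0.475 in d6 female minus d3, 0.15 in d3ag6 minus E12.5 and -0.050 in E12.5 minus E9.5. The second Cdkn1a probe set gave -0.12 in d3ag6 minus d6 female. With single arrays left out, Mdm2 ranged from -0.28 to 0.17 in d6 female minus d3 and from -0.10 to 0.41 in d6 female minus d6 male, Trp53inp1 from -0.15 to 0.26 in d3ag6 minus d3 and from -0.45 to 0.086 in d6 female minus d6 male, Cdkn1a from -0.054 to 0.46 in d3ag6 minus d6 female and Gadd45a from -0.12 to 0.43 in the interaction.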

Other observations

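Of the 16 caspase and apoptosome genes, 9 were not called between PGC stages, and Endog and Birc5 were among those called. Endog, a mitochondrial nuclease, read 9.75 and 9.77 in E12.5 PGCs, against 8.28 and 7.32 in E9.5 PGCs, a difference of 1.96 (SE 0.43, adjusted p = 0.0118 by limma). Birc5, which encodes survivin and also serves mitosis, read 10.25 and 9.95 in E12.5 PGCs, against 11.36 and 11.52 in E9.5 PGCs (-1.34, SE 0.31, adjusted p = 0.0149 by limma). Each kept its call in 1 of 4 fits without 1 array, so both rest on the full set of arrays.

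In aggregates, Bnip3, a BH3-like gene of mitophagy that hypoxia induces, read 11.33 and 11.86 in d3ag6 cells, against 9.79 and 8.35 in d3 cells (2.52, SE 0.59, adjusted p = 0.0270 by limma). Bmf, another BH3-only gene, was higher (9.29 ± 0.03 in d3ag6 cells, against 8.29 ± 0.44 in d3 cells, SD, n = 2 each; adjusted p = 0.0492 by limma) and Bcl2l11 (BIM) lower (-0.88, SE 0.18, adjusted p = 0.0166 by limma) in the same comparison. Each of these 3 calls was kept in 1 of 4 fits without 1 array. Casp6, an executioner caspase, read 8.41 and 8.78 in d3ag6 cells, against 10.01 and 9.88 in E12.5 PGCs (-1.35, SE 0.23, adjusted p = 0.00863 by limma), a call also kept in 1 of 4. The macrophage genes Ctss and Lyz2 and the mesenchyme gene Col3a1 were called higher in d3ag6 cells in both comparisons, and their part was not tested.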
